A study of Mus musculus with 23 samples.

Results

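The 10 genes described here encode secreted IgA, its carrier across the gut epithelium, and the proteins that mark or sustain the cells that make it. They were Igha, Jchain, Pigr, Mzb1, Sdc1, Tnfrsf17, Tnfrsf13b, Tnfrsf13c, Tnfsf13 and Tnfsf13b. They were chosen by symbol from 55449 genes measured in mouse colon and colon tumors. No cut on measured values was applied, but earlier results of these data were known when they were chosen.

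In the colon wall, plasma cells of the lamina propria secrete IgA as a dimer of Igha heavy chains and light chains joined by the J chain, the product of Jchain. The polymeric immunoglobulin receptor, encoded by Pigr and made by epithelial cells, binds that dimer at the basal surface, carries it through the cell and releases it into the lumen with a piece of the receptor attached. The cytokines APRIL (Tnfsf13) and BAFF (Tnfsf13b) act on B lineage cells through BCMA (Tnfrsf17), TACI (Tnfrsf13b) and the BAFF receptor (Tnfrsf13c). Mzb1 encodes a chaperone of the endoplasmic reticulum used in antibody assembly. Sdc1 encodes syndecan-1 (CD138), a surface proteoglycan found on plasma cells and also on epithelial cells.

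RNA was sequenced from colons of male C57BL/6 mice, 6 to 8 weeks old at the start, of genotype Cdx2Apc f/w. In these mice Cre recombinase under the Cdx2 promoter deletes a floxed Apc allele in colon epithelium, which gives colon tumors. All mice ate a diet with 60% fat, received antibiotics, and were then colonized by gavage with Bacteroides fragilis 638R. BF BSHlow was this strain with low bile salt hydrolase activity, and BF BSHhigh was the same strain carrying the bile salt hydrolase gene of the strain BF9343. No group lacked the bacterium, the diet or the deleted allele. The 6 groups were normal colon after 2 weeks of BF BSHlow or BF BSHhigh (4 libraries each), non-tumor colon after 12 weeks of BF BSHlow or BF BSHhigh (4 each), and tumors after 12 weeks of BF BSHlow (4) or BF BSHhigh (3). The labels do not say whether libraries of a group came from separate animals, so the p-values measure the spread between these samples only.

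The 23 libraries held 12401388 to 17903008 expected counts each, with a median of 15874872. The 3 columns used as BF BSHhigh tumors are headed in the deposited table with names of BF BSHlow tumors, which thus occur a further time. They were assigned to BF BSHhigh because the study's own listing of the same counts places them there, without replicate numbers, and they are called a, b and c here. Each value given for BF BSHhigh tumors depends on that assignment, which the expression data did not test. The tumor label fitted the data, since the 6 WNT target genes raised in Apc tumors (such as Axin2 and Wif1) summed to 1346 to 2408 CPM (counts scaled to library size) in the 7 tumors and to 37.1 to 79.3 CPM in the other 16 libraries. Markers of colon epithelium (Epcam, Cdh1, Vil1, Krt8, Krt18, Krt20 and Cdx2) were present in each library, at 3647 to 16201 CPM summed. Smooth muscle markers (7 genes) summed to 15.1 to 226 CPM in the 2-week colons, 1562 to 8645 CPM in the non-tumor tissues and 143 to 376 CPM in the tumors.

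In the GRCm38 build, Igha lies at chr12:113254830-113260236 on the minus strand, in the heavy chain constant region cluster. Jchain lies at chr5:88519809-88527891 (minus), Pigr at chr1:130826684-130852249 (plus) and Sdc1 at chr12:8771323-8793715 (plus). Of the receptors, Tnfrsf17 lies at chr16:11313812-11320074 (plus), Tnfrsf13b at chr11:61126755-61149372 (plus) and Tnfrsf13c at chr15:82221743-82224369 (minus). Tnfsf13b lies at chr8:10006467-10039072 (plus). Tnfsf13, at chr11:69682846-69685784 (minus), overlaps the read-through gene Tnfsfm13 on the same strand and Tnfsf13os on the other, and its counts were not whole in 23 of 23 libraries, so its level is uncertain. RefSeq windows of 250 bases before annotated starts (GRCm38.p6) were found for 8 of the genes and searched on both strands for 5 motifs. The windows printed here belong to Jchain and Pigr, the genes called between the tumor groups, and to Tnfsf13b, a ligand for which the window with a motif is shown. They are read 5′ to 3′ on the strand of the gene, with motif matches in capitals.
Pigr, chr1:130826434-130826683 (plus): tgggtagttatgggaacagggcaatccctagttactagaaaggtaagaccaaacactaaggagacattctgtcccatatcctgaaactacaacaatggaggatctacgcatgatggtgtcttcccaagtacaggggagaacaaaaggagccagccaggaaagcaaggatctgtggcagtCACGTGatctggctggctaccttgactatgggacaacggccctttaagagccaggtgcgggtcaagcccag
Jchain, chr5:88527898-88528147 (minus): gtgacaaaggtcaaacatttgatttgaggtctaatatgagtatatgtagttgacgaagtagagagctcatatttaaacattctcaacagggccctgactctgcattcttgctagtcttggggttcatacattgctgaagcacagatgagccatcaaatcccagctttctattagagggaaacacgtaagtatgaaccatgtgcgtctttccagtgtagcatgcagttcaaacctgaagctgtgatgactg
Tnfsf13b, chr8:10006383-10006632 (plus): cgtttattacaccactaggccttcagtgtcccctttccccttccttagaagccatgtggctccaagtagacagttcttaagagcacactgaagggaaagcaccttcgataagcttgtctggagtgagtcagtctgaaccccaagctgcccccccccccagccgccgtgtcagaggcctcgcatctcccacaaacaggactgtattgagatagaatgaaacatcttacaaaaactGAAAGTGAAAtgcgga
The Pigr window held the E-box CACGTG, 71 bases before the start, a motif present in 6.02% of 32851 windows. The Jchain window held none of the 5 motifs, which were also the octamer ATTTGCAT (1.60% of windows), a pair of GAAA separated by 2 bases, as in interferon response elements (2.98%), CCACG of unfolded protein response elements (28.3%) and TATAAA (12.4%). One of the Tnfsf13b windows held GAAAGTGAAA, a match to the interferon response letters, 16 bases before its start. That RefSeq start lies inside the gene as placed above, so the printed window runs past the gene start given there. The other Tnfsf13b window (chr8:10006217-10006466), which ends next to that gene start, held none of the 5 motifs. Windows that are not printed also held matches. CCACG lay 99 bases before the start of Tnfsf13 and 168 before that of Sdc1. In Tnfrsf17 the interferon response letters lay 101 bases and TATAAA 114 bases before the start. These matches are letters in a window and say nothing of binding.

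In tumors, transcripts for secreted IgA and its carrier were far more abundant with BF BSHhigh than with BF BSHlow. Jchain was 48.4-fold and Pigr 5.70-fold higher, and both passed the test. Igha, Mzb1, Tnfsf13 and Tnfsf13b were also higher in each BF BSHhigh tumor than in any BF BSHlow tumor, but their adjusted p-values lay between 0.0511 and 0.0687. Sdc1 and Tnfrsf13b did not separate the groups. A gene was called when its Benjamini-Hochberg adjusted p from edgeR's quasi-likelihood test was under 0.05 and its log2 fold change was over 1 or under -1. The test called 2 of the 8 genes that could be tested, both higher, against 0.463% of 15325 genes called higher. DESeq2 called 6 of the 8, and 534 of all genes (3.48%). The median log2 fold change of these 8 was 2.08, against -0.03 over all genes tested.

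Igha, the IgA heavy chain constant gene, was at 12.5, 2.16, 24.6 and 1.52 CPM in BF BSHlow tumors 1 to 4, and at 440, 374 and 613 CPM in BF BSHhigh tumors a, b and c. The lowest BF BSHhigh tumor stood well above the highest BF BSHlow tumor. The log2 fold change was 5.53 ± 0.91 (SE) with an adjusted p of 0.0511 by edgeR's quasi-likelihood test. In bulk tissue, fewer cells of a type and less RNA per cell cannot be told apart.

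Jchain, which joins IgA monomers, was at 3.04, 0.821, 3.91 and 0.0977 CPM in BF BSHlow tumors. It was at 87.6, 86.8 and 116 CPM in BF BSHhigh tumors. The groups did not overlap, and the log2 fold change was 5.60 ± 0.70 (SE) with an adjusted p of 0.0343 (edgeR quasi-likelihood). BF BSHlow tumors 1 and 3 were the higher ones for Jchain, as for Igha.

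Pigr, the transport receptor, was at 251, 228, 301 and 120 CPM in BF BSHlow tumors and at 1891, 1186 and 798 CPM in BF BSHhigh tumors. Tumor a was the highest and tumor c the lowest of the BF BSHhigh tumors, whereas tumor c was the highest of them for Igha and Jchain. The log2 fold change was 2.51 ± 0.36 (SE) with an adjusted p of 0.0406 (edgeR quasi-likelihood). The calls of Jchain and Pigr depended on single libraries. Leaving out any 1 BF BSHlow tumor, or BF BSHhigh tumor a or b, ended both calls, with adjusted p-values up to 0.115 for Jchain and 0.120 for Pigr. Leaving out tumor c ended neither. The log2 fold change stayed between 5.20 and 6.16 for Jchain and between 2.13 and 2.76 for Pigr in these 7 fits.

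**Figure D1:**
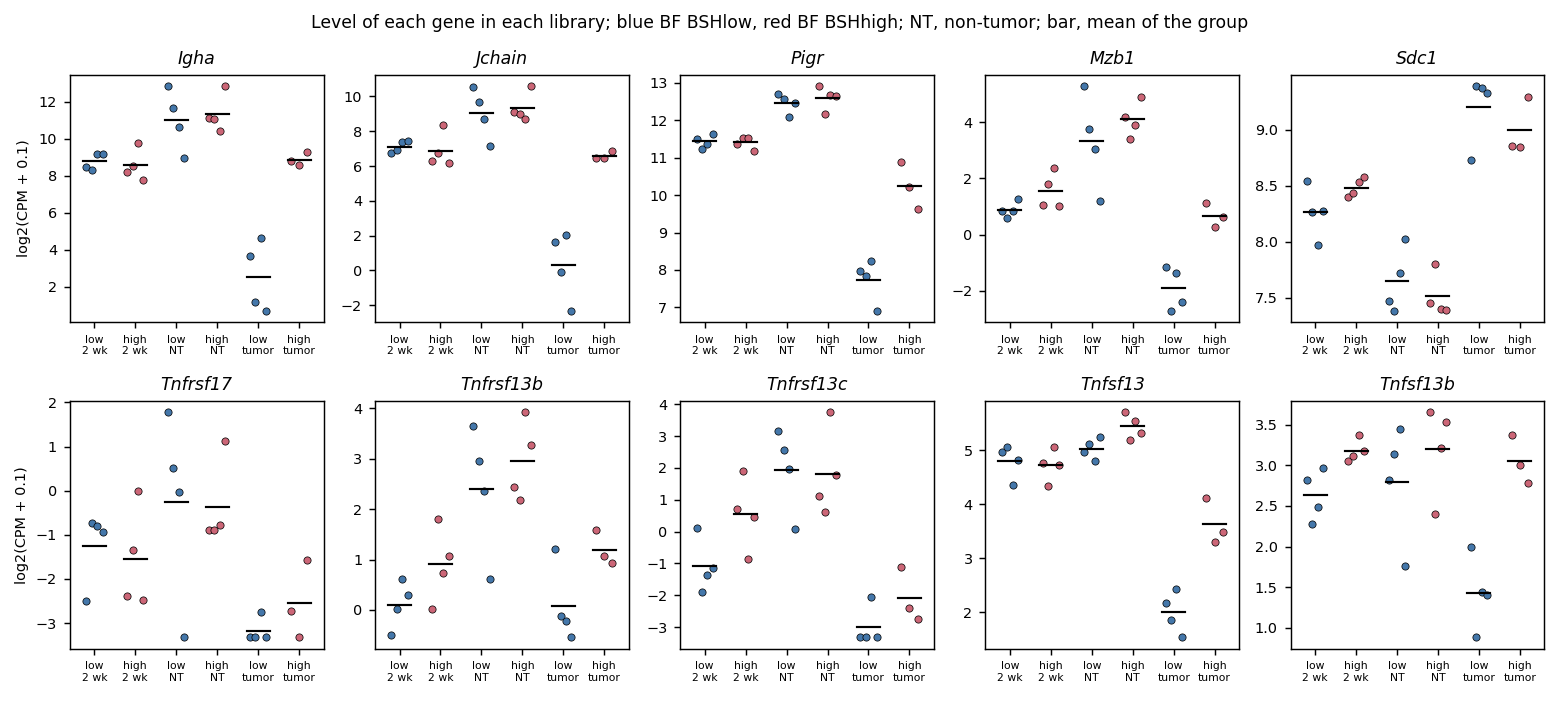
Level of each of the 10 genes as log2(CPM + 0.1), with a point for each of the 23 libraries and a bar at the mean of each group (low, BF BSHlow in blue; high, BF BSHhigh in red; NT, non-tumor). The BF BSHhigh tumors of Igha (374 to 613 CPM) and Jchain lie above all BF BSHlow tumors (1.52 to 24.6 CPM for Igha), while Sdc1 is highest in the tumors of both strains.

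Mzb1 and Sdc1 did not move alike, and Sdc1 is found on epithelial cells as well as on plasma cells. Mzb1 was at 0.344, 0.0513, 0.286 and 0.0880 CPM in BF BSHlow tumors and at 2.07, 1.12 and 1.43 CPM in BF BSHhigh tumors, a log2 difference of 2.92 ± 0.58 (SE) with an adjusted p of 0.0687 (edgeR quasi-likelihood). Sdc1 was at 424, 671, 664 and 641 CPM in BF BSHlow tumors and at 462, 460 and 627 CPM in BF BSHhigh tumors. The Sdc1 ranges overlapped and its log2 difference was -0.22 ± 0.19 (SE), with an adjusted p of 0.680. Beyond these genes, 14 other plasma cell genes were tested, and the quasi-likelihood test called 0 of them. At an unadjusted p under 0.05, 5 were higher and 1 lower, DESeq2 called 3 and limma-voom called 0. Those higher were Irf4, Cd28, Cd38, Pou2af1 and Edem2, with log2 differences of 2.59, 2.31, 1.96, 1.96 and 0.36. The gene lower was Prdm1 (-0.47). Counts at an unadjusted p are given here and below without the share of all genes at that cut. They are descriptions and not calls. Txndc5 and Xbp1, which serve protein folding and the secretory program in many cells, had log2 differences of -0.12 and 0.21.

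The receptors of APRIL and BAFF were close to the detection limit in tumors. Tnfrsf17 (BCMA) had 1 count over the 4 BF BSHlow tumors and 6 counts over the 3 BF BSHhigh tumors. The ratio, set to the library sizes, was 7.78 with a 95% counting interval of 0.944 to 358. Tnfrsf13c (BAFF receptor) had 3 and 10 counts, a ratio of 4.32 (interval 1.11 to 24.4). Both were below the filter on low counts and were not tested, and the intervals cover counting error only. Tnfrsf13b (TACI) was at 2.21, 0.821, 0.763 and 0.586 CPM in BF BSHlow tumors and at 2.90, 2.01 and 1.81 CPM in BF BSHhigh tumors. BF BSHlow tumor 1 lay inside the range of the other group, and the log2 difference of 1.01 ± 0.50 (SE) had an adjusted p of 0.465 (edgeR quasi-likelihood).

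The ligands had more counts, though the level of Tnfsf13, which overlaps Tnfsfm13, is uncertain. Tnfsfm13 had a mean of 3.10 CPM over the tumors and a log2 difference of 0.22 (adjusted p = 0.875, edgeR quasi-likelihood). Tnfsf13 (APRIL) was at 4.43, 3.52, 5.28 and 2.80 CPM in BF BSHlow tumors and at 17.3, 9.75 and 11.1 CPM in BF BSHhigh tumors. Tnfsf13b (BAFF) was at 3.88, 1.74, 2.62 and 2.54 CPM against 10.3, 7.91 and 6.77 CPM. Neither gene's groups overlapped. The log2 differences were 1.65 ± 0.29 (SE) for Tnfsf13 and 1.61 ± 0.31 for Tnfsf13b, with adjusted p-values of 0.0553 and 0.0610 (edgeR quasi-likelihood). In all, 6 of the 8 genes tested were higher in each BF BSHhigh tumor than in any BF BSHlow tumor, a pattern that 7.95% of all genes showed. Of 15 genes that carry signals of these receptors or related ligands, such as Traf3 and Mcl1, the quasi-likelihood test called 0, with 2 higher and 1 lower at an unadjusted p under 0.05 and 0 called by DESeq2 or limma-voom.

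Light chain constant genes stood with Igha. Igkc (kappa) was at 0.684 to 12.9 CPM in BF BSHlow tumors and at 197 to 318 CPM in BF BSHhigh tumors, a log2 fold change of 5.41 with an adjusted p of 0.0446. Iglc2 (lambda 2) rose as well, by 5.46 with an adjusted p of 0.0290 (edgeR quasi-likelihood). It had a mean of only 1.79 CPM over the tumors and was at 0 in at least 1 BF BSHlow tumor, so its fold change is uncertain. Of the 3 light chain genes tested, 2 were called, against 0.463% of all genes called higher. The summed heavy chain genes of other classes were at 0.975 to 5.35 CPM in BF BSHlow tumors and 9.06 to 26.7 CPM in BF BSHhigh tumors, with 0 of 3 called by the quasi-likelihood test, 3 higher at an unadjusted p under 0.05 and 2 called by DESeq2. Ighe was at 0 in each tumor, and Ighg3 in each BF BSHlow tumor.

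Ratios within a library do not depend on scaling between libraries. IgA made up 70.1%, 68.9%, 84.5% and 56.4% of heavy chain constant counts in BF BSHlow tumors 1 to 4. These shares came from 364, 61, 611 and 55 counts, so the 95% exact binomial interval of tumor 4 was 42.3% to 69.7%. In BF BSHhigh tumors the shares were 94.3%, 97.4% and 98.5%, from 8601 to 13046 counts. The groups did not overlap and the means were 69.9% ± 11.5 (SD, n = 4) and 96.7% ± 2.20 (SD, n = 3). The two-sided exact permutation test gave p = 0.0571 (adjusted p = 0.163 over 20 tests), where 0.0286 is the smallest p that 4 against 3 libraries allow.

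The number of Jchain counts per 100 Igha counts was 19.9, 23.2 and 18.9 in BF BSHhigh tumors, and 24.3, 38.1, 15.9 and 6.45 in BF BSHlow tumors, where Igha was scarce. Over the other 16 libraries it ran from 20.5 to 39.1. The log2 ratio differed by 0.07 between the tumor groups (exact permutation p = 0.857). Pigr was also set against Epcam, an epithelial surface gene. The log2 ratio of Pigr to Epcam was -1.72, -2.42, -2.03 and -2.84 in BF BSHlow tumors and 0.56, 0.18 and -0.54 in BF BSHhigh tumors. The groups did not overlap and their means differed by 2.32 (exact permutation p = 0.0286, the smallest possible; adjusted p = 0.0952). Of the 20 tests of 4 ratios in 5 comparisons, 0 passed an adjusted p of 0.05, and 0.0952 was the smallest.

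**Figure D2:**
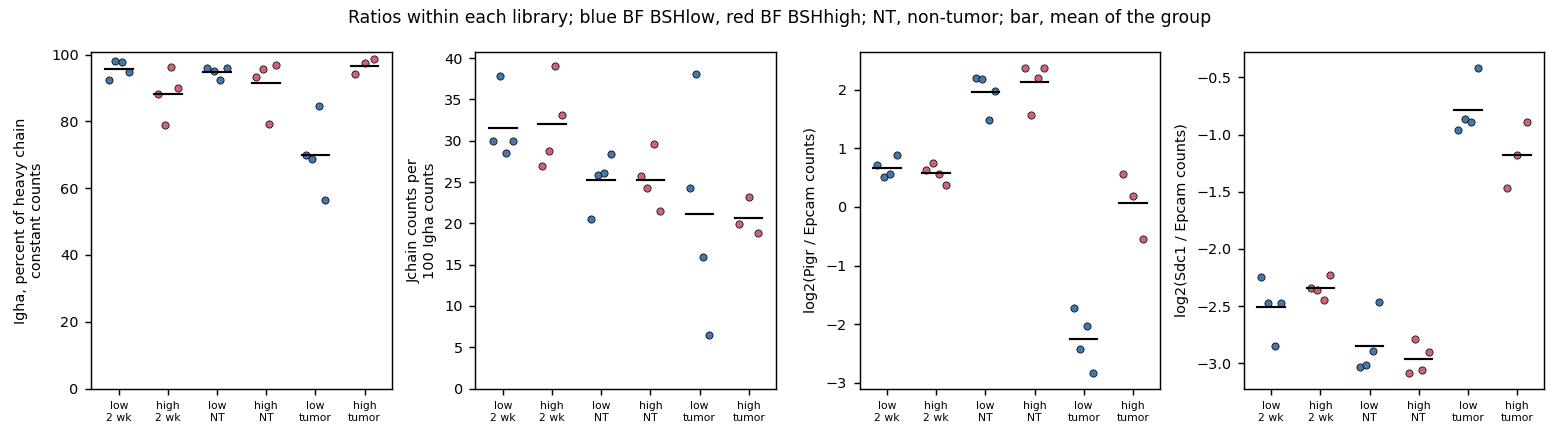
Ratios within each of the 23 libraries, with a point for each library and a bar at the mean of each group: Igha as percent of heavy chain constant counts, Jchain counts per 100 Igha counts, and the log2 ratios of Pigr and Sdc1 to Epcam. The mean IgA share is lowest in the BF BSHlow tumors (69.9%), and the Pigr to Epcam ratio of the BF BSHhigh tumors lies between that of the BF BSHlow tumors and that of the non-tumor tissues.

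Markers of other cells differed between the same tumors. The 6 goblet cell markers summed to 74.8 to 182 CPM in BF BSHlow tumors and to 4569, 1394 and 669 CPM in BF BSHhigh tumors a, b and c, and 2 of the 6 (Zg16 and Fcgbp) were called higher. The 7 mature colonocyte markers summed to 40.1 to 118 CPM and to 385, 123 and 87.9 CPM, with 3 of 7 called higher (Slc13a2, Aqp8 and Slc26a3). Aqp8 and Slc26a3 were at 0 in at least 1 BF BSHlow tumor. The 10 B cell markers summed to 1.39 to 5.82 CPM and to 20.6, 6.48 and 7.63 CPM. Ms4a1, Pax5, Cr2 and Blk were at 0 in at least 1 BF BSHlow tumor, and 0 of the 5 testable B cell markers were called, with 3 higher at an unadjusted p under 0.05 and 0 called by DESeq2. The 8 T cell markers summed to 7.58 to 21.2 CPM and to 48.3, 38.4 and 37.2 CPM, with 0 of 8 called, 5 higher at an unadjusted p under 0.05 and 5 called by DESeq2. The 7 colon epithelium markers summed to 3647 to 6238 CPM and 4731 to 6811 CPM, which overlapped. The order of BF BSHhigh tumors for Pigr (a, b, c) was that of the goblet and colonocyte sums. Igha, Jchain and the light chains were highest in tumor c, where the goblet and colonocyte sums were the lowest of the 3. The part of these other cells in the differences of the IgA genes was not tested.

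**Figure D3:**
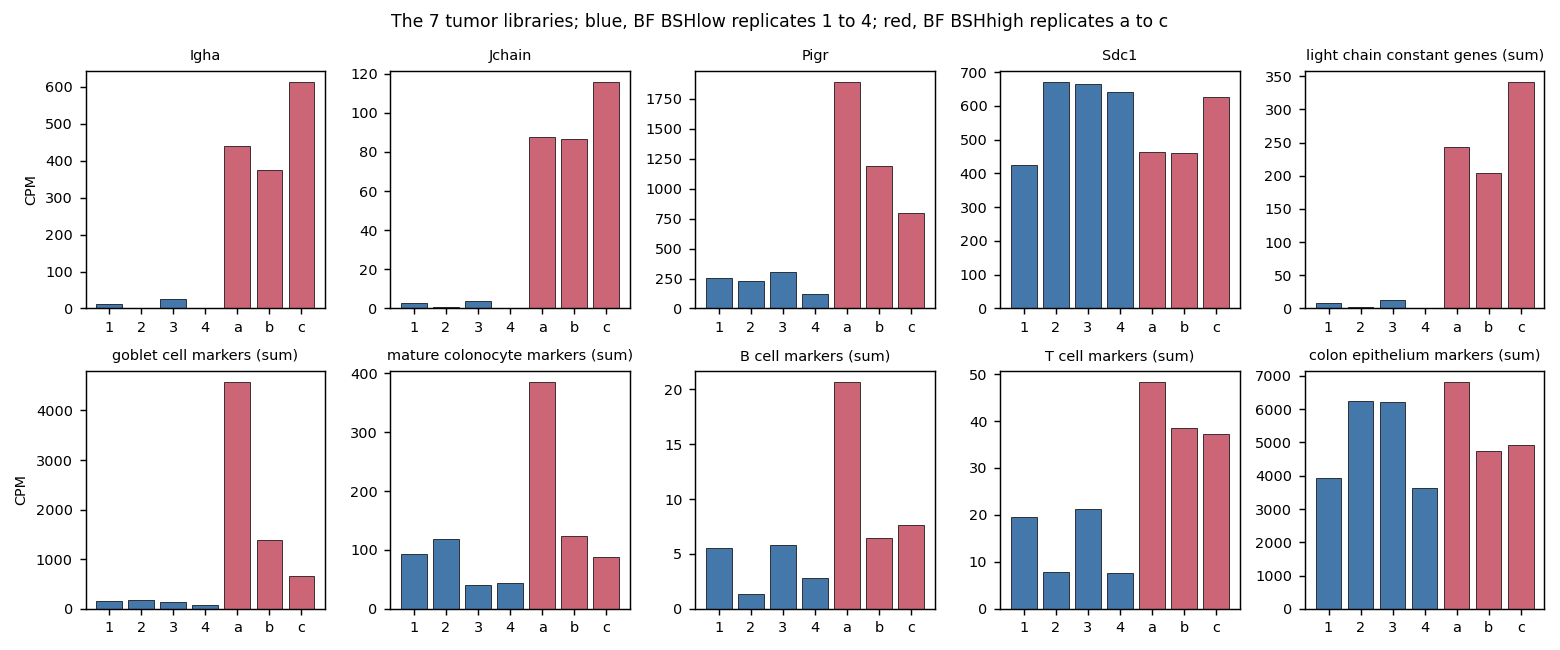
Level in CPM in each of the 7 tumor libraries (blue, BF BSHlow replicates 1 to 4; red, BF BSHhigh replicates a to c) for Igha, Jchain, Pigr, Sdc1 and the summed light chain genes, and for summed markers of other cells. Igha peaks in tumor c (613 CPM) and Pigr in tumor a (1891 CPM), where the goblet sum is also highest (4569 CPM).

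Genes that guide IgA class switching and homing were tested as a further list of 28, of which 19 passed the filter. Ccl28, a chemokine that draws IgA plasma cells to mucosa, was at 1.12 to 2.62 CPM in BF BSHlow tumors and at 12.9 to 62.3 CPM in BF BSHhigh tumors (log2 fold change 4.13, adjusted p = 0.0344). Madcam1, the vascular address for lymphocytes of the gut, rose by 2.91 on the log2 scale (adjusted p = 0.0365). Nos2, the inducible nitric oxide synthase, rose by 2.60 (adjusted p = 0.0290, all 3 by edgeR quasi-likelihood). These 3 of 19 were the genes called in that list. Ccr10, the receptor of CCL28 on IgA plasma cells and named here after its values were seen, was at 0 in the 4 BF BSHlow tumors and at 0.179 to 0.477 CPM in BF BSHhigh tumors. Of 17 testable genes known to regulate Pigr or the transport of IgA, the quasi-likelihood test called 0, with 7 higher at an unadjusted p under 0.05 and 4 called higher by DESeq2.

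Tumors were next compared with non-tumor tissue of the same strain, in a fit of the 15 libraries of 12 weeks. With BF BSHlow, 9 of the 10 genes fell in tumors and Sdc1 rose, against 19.5% of 16454 genes called lower and 16.7% called higher. The median log2 fold change of the 10 was -5.42, or -4.92 with Tnfrsf17 and Tnfrsf13c at their bounds, against 0.04 over all genes tested. Of the genes, 6 were lower in each BF BSHlow tumor than in any BF BSHlow non-tumor tissue (27.7% of all genes), and 8 with BF BSHhigh (29% of all genes). With BF BSHhigh, 8 fell, Sdc1 rose, and Tnfsf13b was not called, against 14.8% of genes called lower and 14.6% higher. The median log2 fold change was then -2.54, against 0.04 over all genes. The 2 comparisons use different libraries and a shared estimate of spread.

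By group mean, Igha was highest in non-tumor tissue, though BF BSHlow non-tumor library 4 lay below BF BSHhigh tumor c (613 CPM). Igha was at 7386, 3200, 1579 and 502 CPM with BF BSHlow and at 2173, 2093, 1384 and 7276 CPM with BF BSHhigh. Its level in tumors was 0.322% of the non-tumor mean with BF BSHlow (0.0478% to 0.777% over tumors) and 14.7% with BF BSHhigh (11.6% to 19.0%). The log2 fold changes were -8.28 ± 1.14 (SE) and -2.77 ± 0.99, with adjusted p-values of 2.07e-05 and 0.0277 (edgeR quasi-likelihood). The BF BSHhigh call was lost without BF BSHhigh non-tumor library 4 or without any 1 of the BF BSHhigh tumors, at an adjusted p of up to 0.0895.

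Jchain was at 1512, 828, 411 and 142 CPM in BF BSHlow non-tumor tissue and at 559, 508, 409 and 1568 CPM in BF BSHhigh non-tumor tissue. The libraries highest for Igha, BF BSHlow 1 and BF BSHhigh 4, were also highest for Jchain. Its tumor level was 0.272% of the non-tumor mean with BF BSHlow and 12.7% with BF BSHhigh, at log2 fold changes of -8.51 ± 0.96 (SE) and -2.98 ± 0.82. Pigr was at 4378 to 6678 CPM and 4597 to 7754 CPM in the non-tumor groups. Its tumor level was 3.94% of that with BF BSHlow and 20.4% with BF BSHhigh, at log2 fold changes of -4.68 ± 0.33 and -2.30 ± 0.33 and adjusted p-values of 5.41e-08 and 5.62e-05 (edgeR quasi-likelihood).

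The drop in tumors differed in size between the strains for Jchain and Pigr. The interaction of tissue and strain, the tumor to non-tumor log2 fold change with BF BSHhigh minus that with BF BSHlow, was 5.53 ± 1.09 (SE) for Jchain (adjusted p = 0.0260) and 2.38 ± 0.42 for Pigr (adjusted p = 0.0170). It was 5.51 ± 1.28 for Igha (adjusted p = 0.0619) and 1.25 ± 0.30 for Tnfsf13 (adjusted p = 0.0707). The quasi-likelihood test called 2 of the 10 genes, against 0.972% of all genes called in that direction, and limma-voom called 0. Jchain was no longer called without any 1 of BF BSHlow non-tumor library 1, BF BSHhigh non-tumor libraries 1, 2 or 3, BF BSHlow tumor 2, or BF BSHhigh tumors a or b (adjusted p up to 0.0647). Pigr stayed called in each of these fits. This test shares its tumor libraries with the comparison of tumors above. For Sdc1 the interaction was -0.05 ± 0.26 (adjusted p = 0.987).

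**Figure D4:**
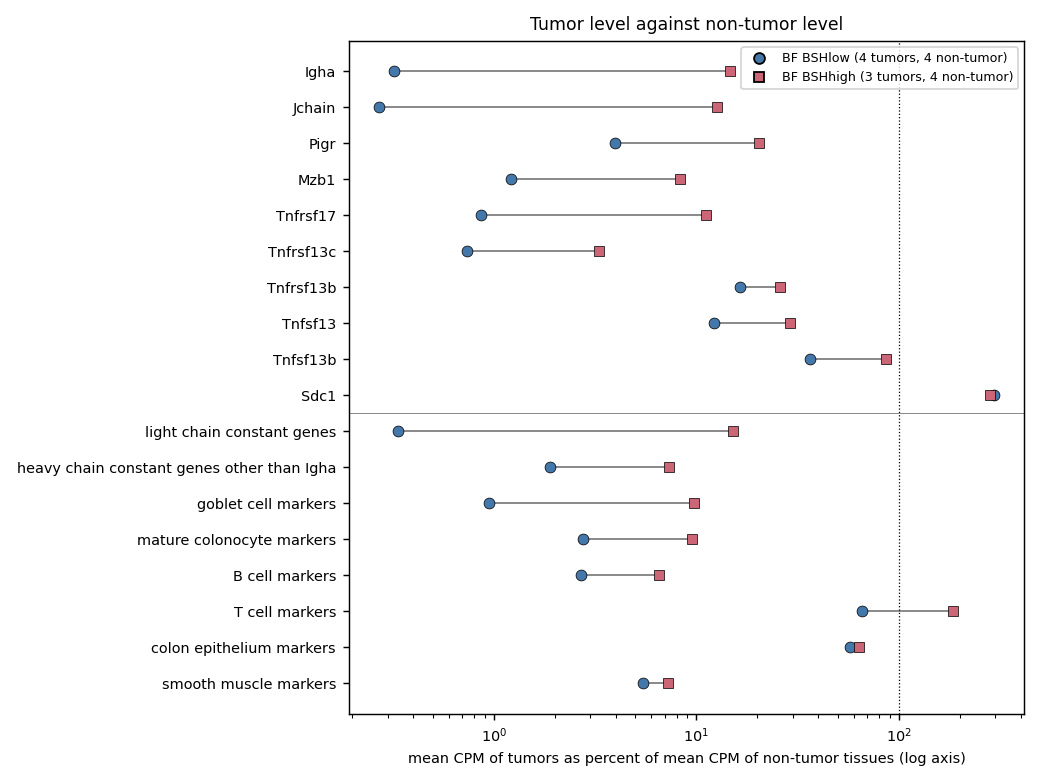
Mean CPM of tumors as percent of the mean CPM of non-tumor tissues (log axis), for BF BSHlow (blue circles) and BF BSHhigh (red squares), with the 10 genes above the line and summed lists of other genes below it. Igha stands at 0.322% and 14.7%, light chains at 0.337% and 15.2%, and Sdc1 near 3 times the non-tumor level with both strains (294% and 281%).

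Sdc1 ran against the rest. It was at 167 to 260 CPM in BF BSHlow and 168 to 223 CPM in BF BSHhigh non-tumor tissue, below each tumor of either strain (424 to 671 CPM). The log2 fold changes of 1.53 ± 0.18 (SE) and 1.48 ± 0.19 had adjusted p-values of 5.22e-06 and 2.20e-05 (edgeR quasi-likelihood). Per Epcam count the log2 ratio was 2.07 and 1.78 higher in tumors, with no overlap (exact permutation p = 0.0286 in each, the smallest possible; adjusted p = 0.0952). Of the 14 other plasma cell genes tested in tumors against non-tumor tissue with each strain, 1 was called higher and 5 lower with BF BSHlow, and 1 higher and 3 lower with BF BSHhigh. The summed level of the whole list of 15 in tumors was 72.3% and 67.1% of that in non-tumor tissue. The gene called higher was Prdm1, a transcription factor of plasma cells that other cells also express (2.19 and 1.73), while Pou2af1 and Irf4, both active in B lineage cells, fell, with log2 fold changes of -5.15 and -4.26 with BF BSHlow and -3.29 and -1.84 with BF BSHhigh. Across the 23 libraries Sdc1 correlated negatively with Igha (Pearson r = -0.808 on log2 CPM) and with Mzb1 (r = -0.897). These correlations span tissues and time points and are descriptions.

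The remaining members fell in tumors of both strains with 1 exception. Mzb1 was at 39.4, 13.3, 8.11 and 2.19 CPM in BF BSHlow and at 18.4, 10.5, 15.04 and 30.0 CPM in BF BSHhigh non-tumor tissue, and fell in tumors (log2 fold changes -6.28 ± 0.86, SE, and -3.59 ± 0.77). Tnfsf13 fell (-3.04 ± 0.22 and -1.79 ± 0.23) from 27.8 to 37.7 CPM and 36.6 to 52.0 CPM. Tnfsf13b fell with BF BSHlow (-1.47 ± 0.36, adjusted p = 0.00255), and with BF BSHhigh its tumor level was 86.8% of the non-tumor mean, a log2 difference of -0.21 ± 0.37 (adjusted p = 0.657, edgeR quasi-likelihood). With library size as the only scaling that value turned to 0.10.

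The receptors fell too, but from low levels. Tnfrsf13b was at 12.5, 7.68, 5.05 and 1.42 CPM in BF BSHlow non-tumor tissue and at 5.31, 4.42, 15.1 and 9.58 CPM in BF BSHhigh, and fell in the tumors (log2 fold changes -2.60 ± 0.61, SE, and -1.95 ± 0.65). The BF BSHlow ranges overlapped, since non-tumor library 4 lay below BF BSHlow tumor 1. Tnfrsf17 gave 81 counts in BF BSHlow non-tumor tissue and 1 in the tumors, a ratio of 108 (95% counting interval 18.8 to 4308), and Tnfrsf13c gave 291 and 3, a ratio of 129 (43.7 to 629). With BF BSHhigh the call of Tnfrsf17 (adjusted p = 0.0481) was lost without any 1 of 10 of the 15 libraries, and that of Tnfrsf13b (adjusted p = 0.0196) without BF BSHhigh non-tumor library 3 or BF BSHhigh tumors b or c.

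**Figure D5:**
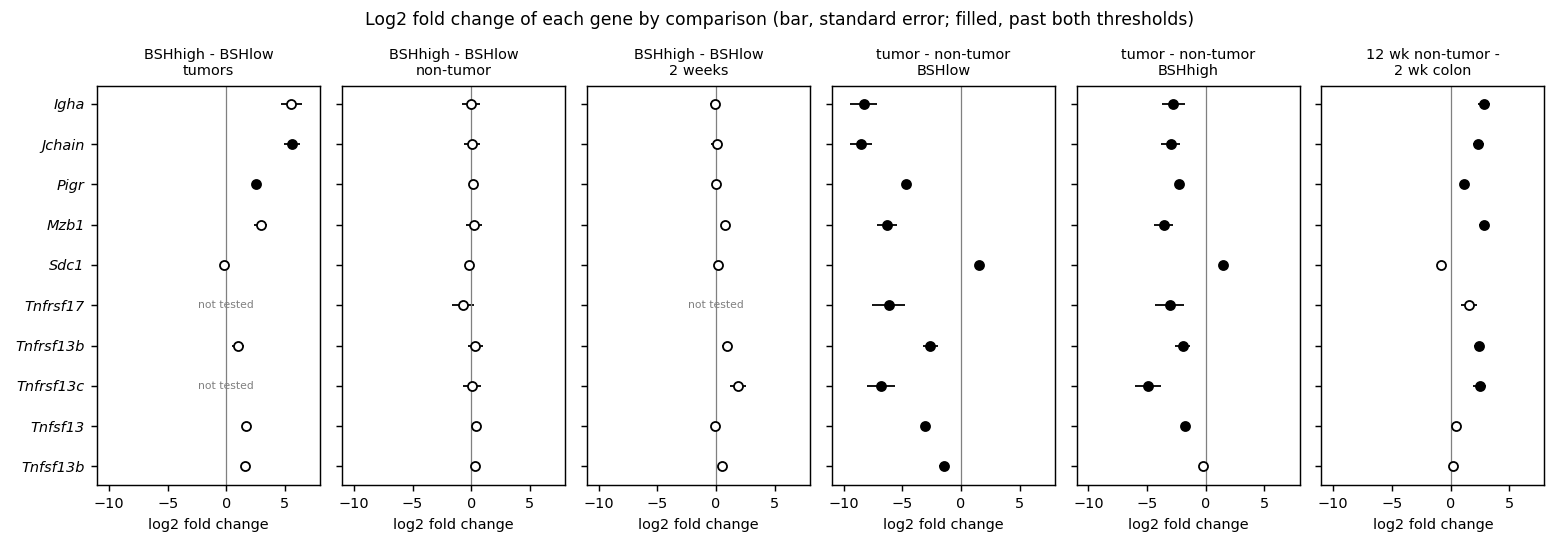
Log2 fold change of each gene in 6 comparisons, with a bar for the standard error, filled where the gene passed both thresholds (adjusted p under 0.05 and log2 fold change over 1 or under -1, edgeR quasi-likelihood). In tumors against non-tumor tissue 9 genes are lower with BF BSHlow and 8 with BF BSHhigh, Sdc1 is higher in both (1.53 and 1.48), and the fitted values of Tnfrsf17 and Tnfrsf13c rest on few counts.

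Several marker lists of other cells were also lower in tumors. All 6 goblet markers were called lower with each strain, as were 7 and 6 of the 7 colonocyte markers, 10 and 9 of the 10 B cell markers, and 7 of 7 smooth muscle markers with each strain. Summed goblet markers in tumors were 0.946% of the non-tumor mean with BF BSHlow and 9.77% with BF BSHhigh. The colonocyte sums were 2.77% and 9.50%, the B cell sums 2.70% and 6.52%, and the smooth muscle sums 5.48% and 7.26%. T cell markers stood at 65.9% and 185%, and epithelium markers at 57.5% and 63.9%. Myeloid markers stood at 201% and 176%, with 3 and 2 of 10 called higher and 0 lower. Their part in the drop of the IgA genes was not tested. Of the 17 testable genes that regulate Pigr or IgA transport, 4 were called higher and 5 lower with BF BSHlow, and 4 higher and 4 lower with BF BSHhigh. Those higher with both strains were the cytokines Il17a and Tnf, the receptor chain Il4ra and the exocyst subunit Exoc4. Their log2 fold changes were 2.82, 2.34, 1.4998 and 1.86 with BF BSHlow, and 5.35, 2.22, 1.15 and 1.43 with BF BSHhigh. The receptor chains Il22ra1, Il17rc and Ifngr1 fell with each strain (log2 fold changes of -3.17, -2.42 and -2.09 with BF BSHlow, and -1.95, -1.77 and -1.14 with BF BSHhigh). Ccl28 had log2 fold changes of -7.10 and -3.18.

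In non-tumor tissue the bacterial strain made no difference that the test could call. The quasi-likelihood test called 0 of the 10 genes and 0% of 14933 genes, with 1 of the 10 (Tnfsf13) higher at an unadjusted p under 0.05, and DESeq2 and limma-voom called 0 of the 10. Pigr differed by 0.14 ± 0.18 (SE, log2) and Sdc1 by -0.15 ± 0.15. Igha differed by 0.02 ± 0.77, with a wide spread within each group (502 to 7386 CPM and 1384 to 7276 CPM), so its difference was known far less precisely than that of Pigr. Tnfsf13 was at 31.1, 34.4, 27.8 and 37.7 CPM with BF BSHlow and at 52.0, 36.6, 46.2 and 39.9 CPM with BF BSHhigh, a log2 difference of 0.41 ± 0.13 (adjusted p = 0.441).

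After 2 weeks of colonization the strain again gave no call among these genes. The quasi-likelihood test called 0 of the 9 genes that could be tested, against 0.00727% of 13752 genes, and DESeq2 and limma-voom called 0. Tnfrsf13c and Tnfsf13b were higher at an unadjusted p under 0.05, each with an adjusted p of 0.711 (edgeR quasi-likelihood). Tnfsf13b was at 6.98, 4.75, 5.50 and 7.74 CPM with BF BSHlow and at 8.18, 8.54, 10.2 and 8.98 CPM with BF BSHhigh. Its groups did not overlap, a pattern of 2.08% of genes, and the log2 difference was 0.51 ± 0.18 (SE) with an adjusted p of 0.711 (edgeR quasi-likelihood). Igha was at 358, 316, 583 and 580 CPM with BF BSHlow and at 289, 367, 854 and 216 CPM with BF BSHhigh, which overlapped. Jchain followed it, with 107, 120, 166 and 174 CPM against 77.7, 106, 334 and 71.7 CPM. Pigr was at 2425 to 3200 CPM and 2310 to 2972 CPM, a log2 difference of -0.04 ± 0.14.

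Non-tumor tissue of 12 weeks was set against normal colon of 2 weeks, with strains pooled as group means. The quasi-likelihood test called 6 of the 10 genes higher and 0 lower, against 18.5% of 15532 genes called higher and 8.02% called lower. They were Mzb1 (log2 fold change 2.85 ± 0.46, SE), Igha (2.84 ± 0.50), Tnfrsf13c (2.47 ± 0.59), Tnfrsf13b (2.42 ± 0.41), Jchain (2.36 ± 0.46) and Pigr (1.12 ± 0.12). The median log2 fold change of the 10 was 1.97, against 0.01 over all genes. Pigr was the member whose groups did not overlap (2310 to 3200 CPM against 4378 to 7754 CPM), a pattern of 14.6% of genes in that direction. Igha overlapped because BF BSHlow non-tumor library 4, at 502 CPM, lay within the 2-week range of 216 to 854 CPM. Sdc1 differed by -0.78 ± 0.10 and Tnfsf13 by 0.46 ± 0.12, both with adjusted p-values under the threshold (8.70e-06 and 0.00334) but with changes too small to be called.

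The light chains (4 of 4 called higher), heavy chains of other classes (5 of 6) and B cell markers (10 of 10) were also higher in the 12-week tissue, as were 6 of 14 other plasma cell genes, led by Tent5c (2.85), Pou2af1 (2.60) and Irf4 (2.51). The summed B cell markers were at 2.42 to 82.1 CPM at 2 weeks and at 16.2 to 464 CPM at 12 weeks. Smooth muscle markers (7 of 7 higher) and myeloid markers (9 of 10) moved with them. Time of colonization, age, the tissue that was cut and any sequencing batch cannot be told apart in this comparison.

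For an order of levels among the 10 genes, CPM were divided by kilobases of annotated exons. At 2 weeks the order of mean CPM per kilobase was Pigr, Igha, Sdc1 and Jchain (694, 172, 81.5 and 56.3 with BF BSHlow), of which Sdc1 and Jchain overlapped, as did Igha and Sdc1 with BF BSHhigh. In non-tumor tissue the mean of Jchain was above that of Sdc1, though their ranges overlapped with BF BSHlow, and Pigr and Igha (1417 ± 243 and 1187 ± 1133, SD, n = 4, with BF BSHlow) did not differ beyond their spread. In BF BSHlow tumors Sdc1 led with 157 ± 30.9 CPM per kilobase, ahead of Pigr (55.9 ± 19.0), Igha (3.82 ± 4.07), Tnfsf13 (2.45 ± 0.66) and Jchain (0.782 ± 0.716), and of these neighbours Igha and Tnfsf13 overlapped. In BF BSHhigh tumors the order was Pigr (321 ± 138), Igha (178 ± 46.3), Sdc1 (136 ± 25.0) and Jchain (38.4 ± 6.55), in which Igha overlapped both Pigr and Sdc1.

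The patterns most like these genes were found among 14297 genes by Pearson correlation of log2 CPM over the 23 libraries. Igha was closest to Igkc (r = 0.998) and Jchain (r = 0.993). After removal of the group means, r with Igkc was still 0.987, so single libraries high or low in Igha within a group were so in Igkc too. Pigr was closest to Ccl28 (0.993, and 0.867 within groups), Muc13 and Fcgbp. Sdc1 was closest to Arnt2 (0.951), Bcl2l15 and Slc9a4. Tnfsf13 was closest to Klk1, its antisense neighbour Tnfsf13os and Necap1 (0.977 each), and Tnfsf13b to Sp110 (0.849), Gimap7 and AW112010. The points share libraries and groups, and these values carry no test.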

How the data were processed

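RNA was sequenced from 23 mouse colon and tumor samples. The authors trimmed reads with cutadapt, aligned them with STAR to mm10, handled them with Picard and estimated expected counts per gene with RSEM, and deposited these as 1 table of unnormalized values (versions not given in the sources used here). Of 55450 rows, 1 named no gene and was left out. Expected counts were rounded to whole numbers, since 4.24% of the values were not whole. The 3 columns used as BF BSHhigh tumors carry header names of BF BSHlow tumors and were assigned from the study's own listing of these counts. Each pair of libraries within a group differed by more than counting noise (chi-square per degree of freedom 16.6 to 126 over 33 pairs). Depth ran from 12401388 to 17903008 counts, and intervals cover counting error only.

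Counts were scaled by TMM and filtered with filterByExpr in edgeR 4.0.16 (R 4.3.3), and CPM were computed on the scaled library sizes over all 23 libraries. Differences were tested with the quasi-likelihood test across all genes, with Benjamini-Hochberg adjustment. Comparisons of strains used the libraries of that tissue. Tumor against non-tumor tissue and the interaction used the 15 libraries of 12 weeks, and time used the 16 libraries without tumors. Ratios were tested with two-sided exact permutation tests. Named genes were the 10 members and, of each list, up to 3 called genes in each direction with the largest change and a mean of at least 1 CPM, and up to 4 of the most abundant. Some genes were named beyond this rule because of their values. Examples are Ccr10, Il4ra and the plasma cell genes at an unadjusted p under 0.05 between tumors. The alternatives were a call at any fold change, RLE, upper-quartile or library size scaling, no filter or CPM over 1 in 3 libraries, Tnfsf13 summed with Tnfsfm13, Cdh1 in place of Epcam, IgA share without Ighm, DESeq2 1.42.0, edgeR's likelihood ratio test, limma-voom (limma 3.58.1), 1 fit of 23 libraries, the replicate number as a block, and each library left out in turn. Positions came from GENCODE M21 and promoter windows from RefSeq. The scripts were tested on simulated data. The genes, lists and tests were chosen with earlier results of these data known.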

Additional observations from a re-analysis of the deposited data

Results flagged for a closer look

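In 70 groups of 4 libraries, the gap of the highest or lowest library to the next was divided by the range. In 10 of them this was above Dixon's critical value at 95% for 4 values. For normally distributed values chance gives this in about 1 in 20 groups. CPM were tested without log transformation, so that rate need not hold here. BF BSHhigh non-tumor library 4 stood above the other 3 for Igha (7276 CPM), Jchain (1568 CPM) and Tnfrsf17 (2.10 CPM). BF BSHhigh non-tumor library 3 stood apart for Tnfrsf13c (13.4 CPM) and library 2 for Sdc1 (223 CPM). At 2 weeks, BF BSHhigh library 3 was the highest for Jchain (334 CPM). Among BF BSHlow tumors, library 1 was the lowest for Sdc1 (424 CPM) and the highest for Tnfrsf13b (2.21 CPM). In BF BSHlow tumor 3, Tnfrsf17 (0.0477 CPM) and Tnfrsf13c (0.143 CPM) had counts while the other 3 libraries had none. For these 2 genes the gap equals the range whatever the count in tumor 3.

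The tumor to non-tumor log2 fold change differed between strains by the interaction test for Pigr (2.38 higher with BF BSHhigh) and for Jchain (5.53 higher), with adjusted p-values of 0.0170 and 0.0260 (edgeR quasi-likelihood).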

How the results depend on the processing

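Between tumors, 2 genes were called as designed, 6 with no filter, DESeq2, the likelihood ratio test or 1 fit of 23 libraries, 3 with library size as the only scaling or limma-voom, and 0 to 2 with 1 library left out. Igha was called in those 6 settings and in none of the 7 fits that left out 1 library, and its adjusted p over 16 alternatives ran from 5.72e-07 to 0.134. For the interaction these counts were 2 as designed, 4 with DESeq2, the likelihood ratio test or 1 fit of 23 libraries, 0 with limma-voom, and 1 to 4 with 1 library left out. The cause was not tested. Counts with 1 library left out were 6 to 9 for tumors against non-tumor tissue with BF BSHhigh, 10 with BF BSHlow, 6 to 7 over time, and 0 for both comparisons of strains outside tumors. Over all genes, 73 were called between tumors, against 534 with DESeq2, 543 with the likelihood ratio test, 320 with no filter, 578 in 1 fit of 23 libraries and 41 with limma-voom. The interaction gave 161, against 387 with DESeq2, 445 with the likelihood ratio test, 263 in 1 fit of 23 libraries and 0 with limma-voom. In non-tumor tissue 0 genes were called, against 59 with DESeq2 and 40 with the likelihood ratio test, and at 2 weeks 1, against 27 and 31.

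Library size as the only scaling moved the median log2 fold change of all genes to 0.37 (BF BSHlow) and 0.35 (BF BSHhigh) between tissues and to 0.27 over time, and the higher and lower calls from 2751 and 3205 to 3999 and 2510, and from 2398 and 2433 to 3534 and 1807. It turned Tnfsf13b in BF BSHhigh tissues to 0.10 and Jchain at 2 weeks to -0.0043. Limma-voom turned Jchain at 2 weeks to -0.24 and, in non-tumor tissue, Tnfrsf17 to 0.19 and Tnfrsf13c to -0.11. None of these was called.

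With 1 library left out, log2 differences of strains in non-tumor tissue ran from -0.76 to 0.88 for Igha, -0.56 to 0.73 for Jchain, -0.14 to 1.23 for Mzb1, -0.064 to 0.87 for Tnfrsf13b, -1.11 to 0.52 for Tnfrsf13c and -1.59 to 0.20 for Tnfrsf17. At 2 weeks they ran from -0.67 to 0.13 for Igha, -0.75 to 0.28 for Jchain, -0.11 to 0.033 for Pigr and -0.22 to 0.027 for Tnfsf13. The interaction of Sdc1 ran from -0.21 to 0.054. The IgA share differed by -5.30 to 0.55 percentage points in non-tumor tissue. The log2 ratio of Jchain to Igha differed by -0.28 to 0.41 between tumors, -0.090 to 0.080 in non-tumor tissue and -0.089 to 0.10 at 2 weeks, and that of Sdc1 to Epcam by -0.17 to 0.021 in non-tumor tissue.

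Correlations of same-numbered libraries ran from -0.173 to 0.26, and 5 of 20 were highest with their own number. The labels do not say whether same-numbered libraries share an animal, and these correlations cannot decide it. With the replicate number as a block, 0 of the genes were called between strains in non-tumor tissue and 0 at 2 weeks, 6 over time, and 9 of 9 tested between BF BSHlow tissues. The block turned Tnfrsf13c in non-tumor tissue to -0.16 and Jchain at 2 weeks to -0.24. BF BSHhigh tumors carry no numbers and could not be blocked. Low counts limit Tnfrsf17 and Tnfrsf13c in tumors, where 1 to 10 counts stand behind each group. They also limit other genes in BF BSHlow tumors, where Mzb1 had 1 to 7 counts in a library and Jchain 2 to 82. Iglc2 was at 0 in at least 1 BF BSHlow tumor.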

Other observations

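Kappa chains made up 87.2%, 97.2%, 96.4% and 93.3% of light chain constant counts in BF BSHlow tumors 1 to 4, from 179, 36, 281 and 15 counts. In BF BSHhigh tumors a to c the shares were 93.9%, 96.7% and 93.2%, from 4564 to 7160 counts, within the range of the BF BSHlow tumors.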
